A study of Botryllus schlosseri with 42 samples.

Results

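Fertile and infertile colonies of the ascidian Botryllus schlosseri were compared at stage B2 of the blastogenic cycle, the recurrent asexual cycle in which each generation of zooids is replaced by its buds. The comparison covers every contig of the assembly used, 50106 of 50106, in 6 of the 42 libraries of the series. Contigs were taken without regard to their values. In every group the RNA came from whole, lab-raised colonies and was captured by its poly(A) tail. The 3 fertile libraries are labelled as hermaphrodites and came from genotype SB801, genotype SB841 and a pool of SB802a, SB804 and SB722. The 3 infertile libraries came from genotype SB802d, genotype SB-BB-001 and a pool of SB831, SB645, SB714, SB841 and SB842, so that genotype SB841 and the name 802 occur on both sides and 1 library in each group pools several genotypes. The age of the colonies is not given in the sources used here.

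Botryllus colonies move in and out of fertility. Oocytes grow inside a coat of follicle cells and, in egg-laying animals at large, take up yolk proteins through receptors of the low-density lipoprotein receptor family. Sperm cells pass through meiosis, repackage their chromatin and build a flagellum, in which dynein motors slide microtubules made of tubulin. Whole colonies carry gonads, gut, muscle and blood at the same time, so a higher level in a library can mean more cells of a type or more RNA per cell, and these cannot be told apart.

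The deposited values are group means of normalized read counts, 1 for the fertile and 1 for the infertile libraries. The counts of the single libraries were recovered from these means. The 3 size factors of each group were not given and were inferred from its low means. With them, a mean of 3 whole counts divided by 3 size factors has a single solution for all but the most abundant contigs. A single solution was found for 50050 contigs in the infertile and 50012 in the fertile group, and 50010 contigs have all 6 library values. The other 96 are the most abundant contigs, and they are described by their means alone. Contigs without a single solution in a group held 26.6% of the mean total in the infertile and 45.3% in the fertile group. These sets differ between the groups, so the 2 shares are not for the same contigs. The deposited means do not tie a recovered library to a genotype, and none was assigned. The libraries are numbered 1 to 3 within each group from the largest size factor to the smallest, and each list of 3 values below follows this order. The contigs with library values held from 8174543 to 13906347 read pairs in a library, and 1 read pair was worth 1.66 to 2.59 normalized counts. Of all contigs, 3238 had no reads, 9021 had a mean under 10 normalized counts and 37751 entered a limma fit of log2(normalized count + 1).

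In the contigs called higher in fertile libraries, infertile library 1 stood apart from the other infertile ones. Over all contigs tested, the infertile medians were alike, at 84.8, 79.4 and 82.7 normalized counts. Over the 120 contigs that a negative binomial exact test found higher in fertile libraries, the median level was 66.5 normalized counts in infertile library 1, against 7.56 in library 2 and 2.59 in library 3. The fertile medians were 852, 411 and 1015. Infertile library 1 was the highest infertile library for 105 of these 120 contigs, against 12686 of the 37751 contigs tested. It held a median of 7.49% of the fertile mean, where infertile libraries 2 and 3 held 0.646% and 0.299%. Fertile library 2 was the lowest fertile library for 110 of the 120, against 11758 of the 37751 contigs tested. The counts below are therefore also given without infertile library 1, and without any other library that changes them. Infertile library 1 was picked out by its values in contigs already called, and leaving it out tends to widen their differences. Calls made without it are therefore no further support.

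Contigs that the negative binomial exact test called higher in the fertile libraries at stage B2 included homologs of proteins known from eggs and sperm. Among them were a family of yolk protein contigs, a receptor of the low-density lipoprotein family and kinases that mammals restrict to the testis. Others were sperm tail proteins, kelch and F-box proteins of the ubiquitin pathway and secreted proteases. Contigs from a list of protease inhibitors and CAP domain proteins, described below, were also called. Of these groups, limma called contigs only in the yolk family and the receptors. Without infertile library 2, and likewise without infertile library 3, the negative binomial exact test called 0 contigs of the kinase, sperm tail, ubiquitin and inhibitor lists. In each list described below except the yolk family and the testis kinases, most contigs were not called. Very few contigs were called lower in the fertile libraries. At a 10% false discovery rate, limma called 4 contigs higher, which is 0.0106% of the 37751 tested, and 0 lower, which is 0%. The lowest limma adjusted p was 0.0569, and at a 5% rate limma called 0. At an unadjusted p under 0.05, limma had 1128 contigs higher and 275 lower. The negative binomial exact test, which uses the read pairs themselves and is the kind of test the study's methods name, called 120 contigs higher, or 0.257% of 46772, and 2 lower, or 0.00428%. The 4 limma calls were among the 120. Without infertile library 1, limma called 36 contigs higher and 9 lower, and the negative binomial exact test called 144 higher and 50 lower, of which 102 and 2 were shared with the calls from all libraries. Other libraries moved the counts too. Contigs called higher by the negative binomial exact test numbered 13 without infertile library 2, 10 without infertile library 3, 44 without fertile library 3, 117 without fertile library 1 and 276 without fertile library 2. Of these, 9, 9, 41, 57 and 118 were among the 120. With the same libraries left out in turn, limma called 7 without infertile library 2 and 0 without infertile library 3 or any 1 of the fertile libraries.

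The fertile libraries all lay above the infertile ones in 1847 contigs, or 4.89% of those tested, and all lay below in 1310, or 3.47%. The median log2 difference over all contigs tested was -0.01. The p-values measure only the spread between these samples. With 3 libraries against 3, no two-sided p from an exact permutation test can be below 0.1, and single contigs are given without one. Errors of log2 differences are standard errors from limma with n = 3 libraries per group.

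**Figure D1:**
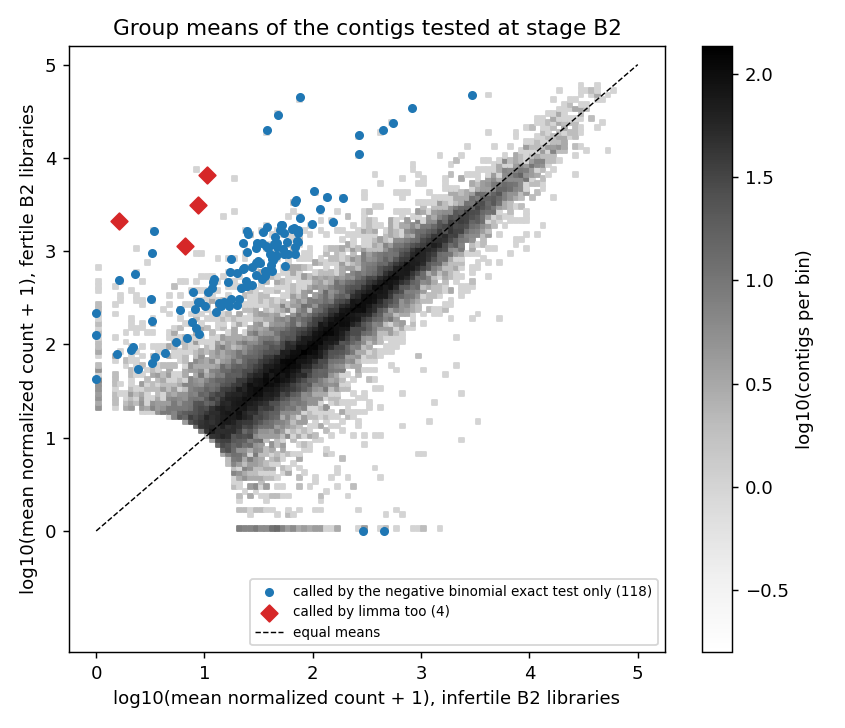
Each axis gives the log10 of a group mean of normalized counts plus 1 at stage B2, the infertile libraries across and the fertile libraries upwards, with grey shading for the number of contigs in a bin, blue points for the contigs called by the negative binomial exact test alone and red diamonds for the 4 that limma called too. The 120 contigs called higher lie far above the dashed line of equal means, and only 2 coloured points lie below it, both at a fertile mean of 0.

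The 4 contigs that limma called were 2 of the yolk family, a lipoprotein receptor and a contig without a homolog. Yolk family here means the contigs whose closest protein in the ascidian Ciona intestinalis is the uncharacterized protein LOC100177400 in the study's annotation. One of them is the contig that the study followed as vitellogenin, the precursor of yolk in egg-laying animals. Bot_rep_c50316 held 8.32, 15.1 and 5.17 in the infertile libraries and 6897, 4838 and 7947 in the fertile libraries. No infertile library came near the fertile range, and the ratio of the means was 688 (log2 difference 9.36 ± 0.54, limma adjusted p = 0.0569, negative binomial exact test adjusted p = 1.85e-09). Bot_rep_c52197 held 14.97, 5.67 and 2.59 in the infertile libraries and 2969.8, 2691 and 3638 in the fertile libraries. These fertile values lay close to each other, and the mean was 400.4-fold the infertile one (log2 difference 8.73 ± 0.65, limma adjusted p = 0.0674, negative binomial exact test adjusted p = 4.86e-08). The vitellogenin contig CAP3_round1_contig_5534 was the most abundant of the family with library values, at 68.2, 132 and 23.3 in the infertile libraries and 80470.5, 25146 and 27953 in the fertile libraries. Fertile library 1 held more than fertile libraries 2 and 3 together, and the group means were 597-fold apart (log2 difference 9.30 ± 0.82, limma adjusted p = 0.111, negative binomial exact test adjusted p = 5.10e-04). CAP3_round1_contig_7081 followed the same order of fertile libraries, at 34.9, 94.5 and 10.3 in the infertile libraries and 51044, 15183 and 21006 in the fertile libraries, with a ratio of 624 (log2 difference 9.55 ± 0.91, limma adjusted p = 0.130, negative binomial exact test adjusted p = 1.11e-04).

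Bot_rep_c47465, named here because it completes the family and chosen after its values were seen, held 49.9, 58.6 and 2.59 in the infertile libraries and 32136, 12037 and 15202 in the fertile libraries, a 534-fold difference of the means (log2 difference 9.67 ± 1.17, limma adjusted p = 0.370, negative binomial exact test adjusted p = 2.00e-07). One more contig of the family, CAP3_round1_contig_3261, was too abundant to be solved. Its authors' means were 192 normalized counts for the infertile and 85457 for the fertile group, a ratio of 444. This is the only contig among the 96 without library values whose ratio was above 10 or below 0.1. Of the 96, 92 had a ratio above 1 and the median ratio was 1.71. The mean was above the limit for solving in 92 contigs of the fertile and 54 of the infertile group. Contigs could thus enter this set on a high fertile mean alone, which favours ratios above 1. The count and the median ratio therefore cannot show whether abundant contigs differed between the groups. Over the 5 family contigs with library values, the summed level was 176, 306 and 43.95 in infertile libraries and 173517, 59896 and 75745 in fertile libraries. The negative binomial exact test called all 5 of these, also without infertile library 1, and limma called 2. Without infertile library 2 or infertile library 3 the negative binomial exact test called 4, and the vitellogenin contig had adjusted p values of 0.161 and 0.211. Contigs with 1 homolog may be pieces or near-identical copies of a gene and may share reads, so their number is no count of genes.

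Receptors of the low-density lipoprotein family carry lipoproteins into cells. Bot_rep_c45532, the contig followed as ldlr, is most like prolow-density lipoprotein receptor-related protein 1, an endocytic receptor of many tissues in mammals. It held 4.99, 9.45 and 2.59 in the infertile libraries and 1199, 925 and 1266 in the fertile libraries. Its infertile values were only a few read pairs, its fertile values differed little, and the ratio of the means was 199 (log2 difference 7.53 ± 0.54, limma adjusted p = 0.0674, negative binomial exact test adjusted p = 9.56e-07). Without infertile library 1 the ratio was 188. Bot_c22230 is most like the very low-density lipoprotein receptor, whose chicken form brings vitellogenin into the oocyte. It held 1.66, 1.89 and 0 in the infertile libraries and 53.4, 78.4 and 145 in the fertile libraries. With at most 1 read pair in each infertile library, the fertile mean was at least 14.999-fold higher than a floor of 3 read pairs per library (log2 difference 5.44 ± 0.65, limma adjusted p = 0.359, negative binomial exact test adjusted p = 0.00531). This floor and the bounds made from it cover counting error only.

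The other 9 tested contigs of the receptor list overlapped between the groups. Bot_c25900, a homolog of the kidney and yolk-sac receptor LRP2, held 1.66, 43.5 and 0 in the infertile libraries and 100.05, 23.5 and 38.7 in the fertile libraries. Infertile library 2 lay inside the fertile range (log2 difference 3.23 ± 1.45, limma adjusted p = 1.00, negative binomial exact test adjusted p = 1.00). Bot_c29214, another LRP2 homolog, held 3.33, 71.8 and 0 in the infertile libraries and 107, 31.3 and 95.7 in the fertile libraries, again with infertile library 2 inside the fertile range (log2 difference 3.35 ± 1.57, limma adjusted p = 1.00, negative binomial exact test adjusted p = 1.00). Of 15 listed receptor contigs, 11 were tested, 2 had all fertile libraries above and 0 below, and the same 2 were called by the negative binomial exact test. Without infertile library 2 or infertile library 3 that test called ldlr alone. The median log2 difference of the 11 was 2.41. Bot_rep_c49193, the limma call outside these families, has no homolog in any of the 5 species searched. A single read pair in 1 infertile library was all that it had there, against 3513, 1048 and 1818 normalized counts in the fertile libraries, at least 346-fold higher (log2 difference 10.37 ± 0.70, limma adjusted p = 0.0674, negative binomial exact test adjusted p = 2.00e-07).

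**Figure D2:**
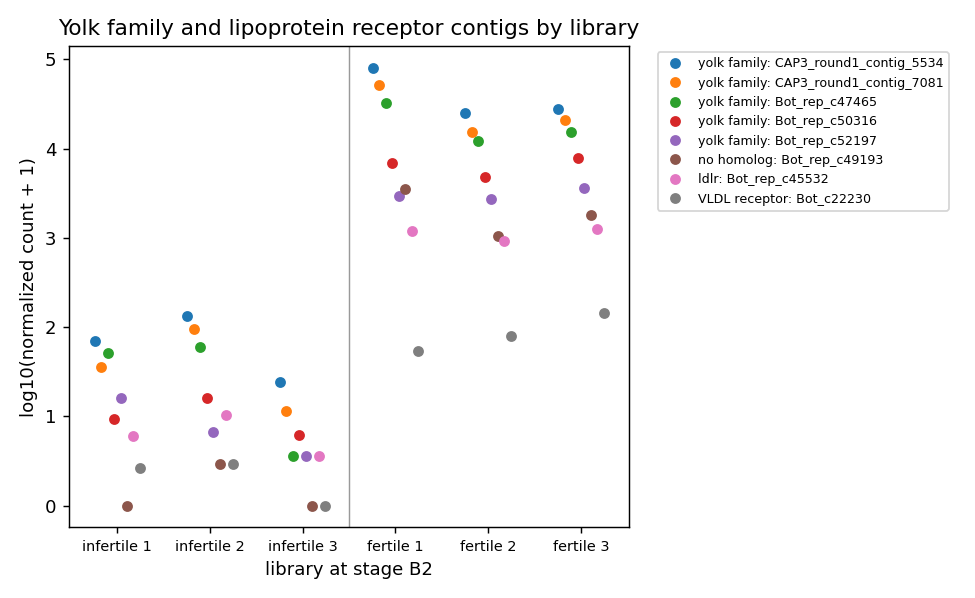
The log10 of the normalized count plus 1 is plotted for each of the 6 libraries at stage B2, with 1 colour for each of 8 contigs: 5 of the yolk family, the contig without a homolog, ldlr and the very low-density lipoprotein receptor homolog. In each contig the 3 fertile libraries lie above the 3 infertile ones, and among the yolk contigs fertile library 1 reaches 80470.5 normalized counts in the vitellogenin contig.

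Lists of contigs by homolog name put these into a wider setting. They were drawn from annotation sheets that were held here only in part and were sorted by p, so their members over-represent contigs that differ. The 1931 tested contigs with a human homolog in these sheets had a median log2 difference of 0.69, with 22.2% of them fertile above and 3.99% fertile below. The negative binomial exact test called 56 of 2122 such contigs higher, or 2.64%, and the lists are given beside these values. The calls of most lists depended on single infertile libraries. Without infertile library 2, and likewise without infertile library 3, this test called 4 yolk contigs, 1 lipoprotein receptor and 1 kringle and apple domain protease, and 0 contigs of every other list.

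Testis-specific serine/threonine kinases are, in mammals, made in developing sperm cells. All 5 contigs with such a homolog were tested and in all 5 every fertile library was above every infertile one, with a median log2 difference of 6.25. Of these, the negative binomial exact test called 3, also without infertile library 1. It called 5 without fertile library 2, 2 without fertile library 3 and 0 without infertile library 2 or infertile library 3. The contig followed as tsk-1, Bot_rep_c45338, held 179.6, 17.01 and 10.3 in the infertile libraries and 4476, 1749 and 4342 in the fertile libraries. Infertile library 1 was the highest of its group and still below the lowest fertile library, and the means were 51.05-fold apart (log2 difference 6.60 ± 1.12, limma adjusted p = 0.722, negative binomial exact test adjusted p = 5.10e-04). It was called by limma when infertile library 1, its highest infertile library, was left out (log2 difference 7.82, limma adjusted p = 0.0876, negative binomial exact test adjusted p = 4.95e-04). Without infertile library 2 or infertile library 3 its negative binomial exact test adjusted p values were 0.205 and 0.211. A second homolog of kinase 1, Bot_rep_c35291, held 78.2, 11.3 and 10.3 in the infertile libraries and 1077, 742 and 1830.0 in the fertile libraries. The order of the infertile libraries was alike and the ratio was 36.5 (log2 difference 5.67 ± 0.88, limma adjusted p = 0.696, negative binomial exact test adjusted p = 0.00209). For another kinase 1 homolog, Bot_rep_c45613, the values were 63.2, 7.56 and 0 in the infertile libraries and 2679.7, 597 and 1633 in the fertile libraries, a ratio of 69.4 (log2 difference 7.39 ± 1.53, limma adjusted p = 0.722, negative binomial exact test adjusted p = 0.0127). A kinase 4 homolog, CAP3_round1_contig_9899, held 223, 66.2 and 46.5 in the infertile libraries and 2825, 756 and 1618 in the fertile libraries and was not called (log2 difference 4.08 ± 0.80, limma adjusted p = 0.722, negative binomial exact test adjusted p = 0.146). The contig followed as tsk-2, Bot_rep_c36244, was found in infertile library 1 alone of its group, at 48.2, 0 and 0 in the infertile libraries and 240.1, 141 and 631 in the fertile libraries. Its groups did not overlap and it was not called (log2 difference 6.25 ± 1.63, limma adjusted p = 0.867, negative binomial exact test adjusted p = 0.836).

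Axonemal dyneins are the motors of cilia and flagella. Of 38 contigs with an axonemal dynein heavy chain homolog, 37 were tested and all 37 had a positive log2 difference, with a median of 2.88. Every fertile library was above every infertile one in 23 and below in 0. A single contig was called by the negative binomial exact test, which is 2.63% of the 38, beside 2.64% for contigs with a human homolog. With infertile library 1 left out, 4 contigs were called and this one was not among them, at an adjusted p of 0.333. Without fertile library 2, 9 were called, and without any 1 of the other libraries 0. The contig called with all libraries, Bot_c10127, is most like dynein heavy chain 17 and held 1.66, 0 and 2.59 in the infertile libraries and 60.03, 23.5 and 75.3 in the fertile libraries. Infertile libraries had at most 1 read pair, and the fertile mean was at least 8.63-fold higher (log2 difference 4.52 ± 0.72, limma adjusted p = 0.696, negative binomial exact test adjusted p = 0.0443). Bot_c26349, a heavy chain 5 homolog, held 4.99, 1.89 and 7.76 in the infertile libraries and 208, 47.01 and 106 in the fertile libraries, at least 19.6-fold higher in fertile libraries (log2 difference 4.26 ± 0.73, limma adjusted p = 0.722, negative binomial exact test adjusted p = 0.171). In Bot_c7411, a heavy chain 11 homolog, infertile library 1 alone had reads, and the values were 6.65, 0 and 0 in the infertile libraries and 168, 35.3 and 91.6 in the fertile libraries (log2 difference 5.39 ± 1.02, limma adjusted p = 0.722, negative binomial exact test adjusted p = 0.133). Bot_c32023, another heavy chain 5 homolog, held 3.33, 0 and 0 in the infertile libraries and 113, 13.7 and 67.2 in the fertile libraries (log2 difference 4.90 ± 0.99, limma adjusted p = 0.722, negative binomial exact test adjusted p = 0.307). These last contigs were separated by group and did not pass either test. Heavy chain genes are long, and several of these contigs may be pieces of 1 gene. The summed level of the list was 2069, 571 and 439.5 in infertile libraries and 6992, 3171 and 6196 in fertile libraries.

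The list of sperm tail and sperm formation proteins held 5 called contigs. Of 24 listed contigs, 23 were tested, 18 had all fertile libraries above and 0 below, and the median log2 difference was 4.16. The log2 differences ran from -0.71 to 7.67, and 20 of 23 were positive. By the negative binomial exact test 5 were called, and 7 without infertile library 1, these 5 among them. Calls numbered 12 without fertile library 2, 4 without fertile library 3, 3 without fertile library 1 and 0 without infertile library 2 or infertile library 3. CAP3_round1_contig_2216 is a homolog of CCDC37, a protein of cilia and flagella known from the alga Chlamydomonas, and held 31.6, 11.3 and 5.17 in the infertile libraries and 637, 280.1 and 851 in the fertile libraries. All infertile values were far below the fertile ones, a ratio of 36.7 (log2 difference 5.30 ± 0.78, limma adjusted p = 0.696, negative binomial exact test adjusted p = 0.00250). A second CCDC37 homolog, Bot_c16973, held 18.3, 1.89 and 0 in the infertile libraries and 222, 104 and 199 in the fertile libraries, a ratio of 26.01 (log2 difference 5.45 ± 1.11, limma adjusted p = 0.722, negative binomial exact test adjusted p = 0.0233). CAP3_round1_contig_4558 is most like fibrous sheath-interacting protein 2, a partner of the sheath around the mammalian sperm tail. It held 241, 22.7 and 31.02 in the infertile libraries and 1864, 1075 and 2921 in the fertile libraries. Infertile library 1 was again the highest of its group, and the means differed 19.9-fold (log2 difference 4.99 ± 0.99, limma adjusted p = 0.722, negative binomial exact test adjusted p = 0.0190). Bot_rep_c52016, an outer dense fiber protein 3-like homolog, held 135, 30.2 and 18.1 in the infertile libraries and 2449.6, 488 and 1569 in the fertile libraries and was not called, though its groups did not overlap (log2 difference 4.83 ± 0.96, limma adjusted p = 0.722, negative binomial exact test adjusted p = 0.136). The remaining called members were homologs of MORN repeat-containing protein 5, Bot_rep_c35521, at authors' means of 30.5 and 786 normalized counts, and of spermatogenesis-associated protein 21, Bot_rep_c56365, at 48.3 and 1684. Homologs of the sperm ion channel subunits CATSPER1 to CATSPER4 made up 6 contigs of the list, 1 of them under the minimum mean. Their groups did not overlap and none was called, with infertile means from 0.554 to 18.9 and fertile means from 10.7 to 117.

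The ubiquitin list gathers E3 ligases, conjugating enzymes, F-box proteins and kelch-like protein 10, an adaptor that mice need in developing sperm. It was mixed. Of 38 contigs 33 were tested, 16 had all fertile libraries above and 0 below, and the median log2 difference was 1.24. By the negative binomial exact test 8 contigs were called, and 7 of these without infertile library 1. It called 2 without fertile library 3, 1 without fertile library 1 and 0 without infertile library 2 or infertile library 3. Bot_c13938, a homolog of MARCH11, an E3 ligase set in membranes, held 19.96, 5.67 and 7.76 in the infertile libraries and 685, 212 and 613 in the fertile libraries. All 3 infertile values were at most 20 normalized counts, and the ratio was 45.2 (log2 difference 5.39 ± 0.71, limma adjusted p = 0.480, negative binomial exact test adjusted p = 0.00116). A second MARCH11 homolog, Bot_rep_c40270, held 13.3, 1.89 and 2.59 in the infertile libraries and 73.4, 97.9 and 177 in the fertile libraries (log2 difference 4.37 ± 0.76, limma adjusted p = 0.722, negative binomial exact test adjusted p = 0.0643). Fertile library 1 was its lowest fertile library, unlike in Bot_c13938. Bot_c12760 is a homolog of kelch-like protein 10 and held 38.3, 5.67 and 2.59 in the infertile libraries and 432, 251 and 710.4 in the fertile libraries, a ratio of 29.9 (log2 difference 5.44 ± 0.98, limma adjusted p = 0.722, negative binomial exact test adjusted p = 0.00664). Bot_c25902, another, had no read in any infertile library and 10.01, 9.79 and 40.7 normalized counts in the fertile libraries. That mean is at least 3.29-fold higher, and the contig was not called (log2 difference 4.09 ± 0.65, limma adjusted p = 0.696, negative binomial exact test adjusted p = 1.00). Further called members were 2 more kelch-like protein 10 homologs, Bot_c24963 and Bot_c2674, the F-box protein 39 and 24 homologs Bot_c106 and Bot_c25439, and the conjugating enzyme E2 R2 homolog CAP3_round1_contig_8583, whose authors' means were 74.6 and 2256 normalized counts. E3 ligases that many tissues use, such as the HERC4 homolog Bot_c1116 at authors' means of 1499 and 1418, overlapped between the groups.

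Serine proteases with kringle or apple domains, which in mammals include the clotting and clot-dissolving enzymes of the blood, gave 3 called contigs. CAP3_round1_contig_2527, a plasma kallikrein homolog, had 2 read pairs in infertile library 2 and none in the others, against 569, 772 and 364 normalized counts in the fertile libraries. Fertile library 2 was its highest, and the fertile mean was at least 92.6-fold higher (log2 difference 8.33 ± 0.76, limma adjusted p = 0.122, negative binomial exact test adjusted p = 5.13e-07). Bot_c298, a plasminogen homolog, held 49.9, 5.67 and 15.5 in the infertile libraries and 1241, 253 and 1423 in the fertile libraries, a ratio of 41.02 (log2 difference 5.43 ± 1.01, limma adjusted p = 0.722, negative binomial exact test adjusted p = 0.0439). Bot_c499, another plasminogen homolog, held 78.2, 17.01 and 18.1 in the infertile libraries and 677, 284 and 861 in the fertile libraries (log2 difference 4.19 ± 0.79, limma adjusted p = 0.722, negative binomial exact test adjusted p = 0.0422). Both had their lowest fertile value in fertile library 2. One more plasminogen homolog, Bot_c16998, held 6.65, 1.89 and 12.9 in the infertile libraries and 102, 159 and 818 in the fertile libraries and was not called (log2 difference 5.14 ± 0.98, limma adjusted p = 0.722, negative binomial exact test adjusted p = 1.00). All 18 contigs of this list were tested. Fertile libraries were above in 9 and below in 0, the median log2 difference was 1.79, and 3 were called by the negative binomial exact test, or 2 without infertile library 1. With infertile library 2, infertile library 3, fertile library 1 or fertile library 3 left out, 1 was called, the kallikrein homolog.

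Protease inhibitors and proteins with a CAP domain, a fold shared by secreted proteins of sperm and venom, made a short list. All 7 contigs were tested, 4 had every fertile library above, 3 were called and the median log2 difference was 4.35. The same 3 were called without infertile library 1. Calls numbered 5 without fertile library 2 and 0 without any 1 of the other libraries. Bot_c3440, a peptidase inhibitor 16 homolog, held 24.95, 1.89 and 2.59 in the infertile libraries and 427, 157 and 503 in the fertile libraries, a ratio of 36.9 (log2 difference 5.65 ± 0.99, limma adjusted p = 0.722, negative binomial exact test adjusted p = 0.00358). Bot_c22443 is a homolog of GLIPR1-like protein 1, which sits on mouse sperm, and held 149.7, 45.4 and 15.5 in the infertile libraries and 1677.5, 576 and 1584 in the fertile libraries (log2 difference 4.57 ± 0.93, limma adjusted p = 0.722, negative binomial exact test adjusted p = 0.0250). For CAP3_round1_contig_3213, a homolog of an inter-alpha-trypsin inhibitor heavy chain that binds hyaluronan in mammals, the values were 366, 47.3 and 46.5 in the infertile libraries and 2489.6, 1066 and 2675 in the fertile libraries (log2 difference 4.35 ± 0.94, limma adjusted p = 0.735, negative binomial exact test adjusted p = 0.0643). In each of these, infertile library 1 was the highest infertile library. A tissue factor pathway inhibitor homolog, CAP3_round1_contig_4833, held 8.32, 5.67 and 0 in the infertile libraries and 354, 47.01 and 297 in the fertile libraries and was not called (log2 difference 5.44 ± 1.16, limma adjusted p = 0.722, negative binomial exact test adjusted p = 0.104).

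ADAM proteins are membrane-bound metalloproteases, several of which act on mammalian sperm, and tolloid and meprin belong to the related astacin family. Of 24 contigs 22 were tested and all 22 had a positive log2 difference, with a median of 2.62. Groups were separated in 8 of them, all with fertile above, and 3 were called. The number was 2 without infertile library 1, 5 without fertile library 2 and 0 without any 1 of the other libraries. The summed level of the list overlapped between the groups, at 2172, 20357 and 739 in infertile libraries and 34776, 7305 and 16075 in fertile libraries. Bot_rep_c49149, an ADAM9 homolog, had reads in infertile library 1 alone of its group and held 6.65, 0 and 0 in the infertile libraries and 534, 78.4 and 307 in the fertile libraries, a ratio of 138 (log2 difference 6.90 ± 1.09, limma adjusted p = 0.696, negative binomial exact test adjusted p = 0.0435). CAP3_round1_contig_6892, an ADAM12 homolog, held 225, 20.8 and 62.1 in the infertile libraries and 5211, 1232 and 6685 in the fertile libraries, a ratio of 42.7 (log2 difference 5.69 ± 1.06, limma adjusted p = 0.722, negative binomial exact test adjusted p = 0.0397). A second ADAM12 homolog, CAP3_round1_contig_7986, held 96.5, 7.56 and 25.9 in the infertile libraries and 2138, 433 and 1730.3 in the fertile libraries (log2 difference 5.38 ± 1.07, limma adjusted p = 0.722, negative binomial exact test adjusted p = 0.0422). With infertile library 1 left out, these ADAM9 and ADAM12 contigs had negative binomial exact test adjusted p values of 0.209, 0.0798 and 0.0646. Bot_rep_c49441, an ADAM19 homolog, held 18.3, 0 and 10.3 in the infertile libraries and 330.2, 104 and 556 in the fertile libraries and was not called (log2 difference 5.48 ± 1.26, limma adjusted p = 0.786, negative binomial exact test adjusted p = 0.121). The separated contigs were 6 ADAM homologs, an ADAMTS6 homolog and a meprin A subunit alpha homolog, while 13 of the 14 tested meprin and tolloid homologs overlapped. Among these the contig followed as tolloid-like 1, Bot_c3513, held 23.3, 0 and 7.76 in the infertile libraries and 88.4, 19.6 and 87.5 in the fertile libraries, with fertile library 2 inside the infertile range (log2 difference 3.19 ± 1.28, limma adjusted p = 1.00, negative binomial exact test adjusted p = 1.00). This contig's closest human protein in the sheets is the related meprin A subunit beta.

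Matrix proteins, by contrast, had a median log2 difference of -0.20, beside -0.01 for all contigs tested and 0.69 for contigs with a human homolog. With 1 library left out, the matrix median ran from -0.36 to 0.04. Of 32 listed contigs 29 were tested, 3 had fertile libraries above, 2 below and none was called. Without fertile library 1, and likewise without fertile library 2, the negative binomial exact test called 1 higher. The separated contigs that were higher were homologs of hemicentin-1, a large protein of cell junctions and basement membranes. Bot_c1263 held 64.9, 47.3 and 18.1 in the infertile libraries and 1034, 170.4 and 397 in the fertile libraries, Bot_c1197 held 371, 109.6 and 41.4 in the infertile libraries and 3178, 537 and 1126 in the fertile libraries and CAP3_round1_contig_1394 held 281, 47.3 and 82.7 in the infertile libraries and 2009, 357 and 871 in the fertile libraries. All had a limma adjusted p of at least 0.838. One more hemicentin-1 homolog, Bot_c25606, held 41.6, 9.45 and 15.5 in the infertile libraries and 305, 21.5 and 157 in the fertile libraries and overlapped.

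The list of egg coat and cell surface proteins held 2 called contigs. Of 26 listed contigs 25 were tested, 13 had every fertile library above, 0 below and the median log2 difference was 3.20. Without infertile library 1 the negative binomial exact test called 4, of which 1 was among the 2. It called 7 without fertile library 2, 1 without fertile library 1 and 0 without any 1 of the other libraries. The contig followed as zp-1, Bot_c16824, is most like GP2, a glycoprotein with the zona pellucida domain from which vertebrate egg coats are built. It held 4.99, 5.67 and 2.59 in the infertile libraries and 71.7, 76.4 and 169 in the fertile libraries. Infertile libraries had 3 read pairs or fewer, and the fertile mean was at least 17.2-fold higher (log2 difference 4.23 ± 0.55, limma adjusted p = 0.480, negative binomial exact test adjusted p = 0.0422). It was not called in the absence of infertile library 1 (log2 difference 4.33, limma adjusted p = 0.182, negative binomial exact test adjusted p = 0.305). Bot_c25362, most like DMBT1, a secreted protein of mammalian epithelia with the same domain, held 36.6, 0 and 2.59 in the infertile libraries and 197, 159 and 409 in the fertile libraries, a ratio of 19.5 (log2 difference 5.52 ± 1.33, limma adjusted p = 0.818, negative binomial exact test adjusted p = 0.0423). The contig followed as P-selectin, a receptor for cell adhesion in blood vessels of mammals, was Bot_c13044. Its values were 28.3, 7.56 and 2.59 in the infertile libraries and 415, 88.1 and 273 in the fertile libraries, separated by group and not called (log2 difference 4.49 ± 0.96, limma adjusted p = 0.722, negative binomial exact test adjusted p = 0.172).

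Otoancorin is a protein of the mammalian inner ear, where it holds gels to the cells beneath. Its contig here, CAP3_round1_contig_9042, held 1089.5, 41.6 and 56.9 in the infertile libraries and 13427, 1835 and 3849 in the fertile libraries. Infertile library 1 was over an order of magnitude above the other infertile libraries and still below every fertile one (log2 difference 5.04 ± 1.42, limma adjusted p = 0.942, negative binomial exact test adjusted p = 1.00). Tetraspanins organise membrane proteins at cell contacts, including those of egg and sperm in mice. Bot_c16543, followed as tetraspanin-8, held 24.95, 0 and 7.76 in the infertile libraries and 213, 45.1 and 85.5 in the fertile libraries (log2 difference 3.96 ± 1.28, limma adjusted p = 1.00, negative binomial exact test adjusted p = 1.00). Bot_rep_c56793, a tetraspanin-8 homolog, held 66.5, 18.9 and 28.4 in the infertile libraries and 562, 114 and 329.8 in the fertile libraries (log2 difference 3.02 ± 0.79, limma adjusted p = 0.867, negative binomial exact test adjusted p = 0.935). All 3 of these contigs had groups that did not overlap and adjusted p values above the threshold. CAP3_round1_contig_7497, a further tetraspanin-8 homolog chosen after its values were seen, held 3.33, 26.5 and 23.3 in the infertile libraries and 6937, 5.88 and 1445 in the fertile libraries, so that fertile library 2 lay inside the infertile range.

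All 14 histone contigs were tested, with a median log2 difference of 4.82, 4 with fertile libraries above and 0 below. One was called, with 3 called without infertile library 1 and 0 without infertile library 2 or infertile library 3. The summed level of the list was 8931, 8983 and 10029 in infertile libraries and 36959, 9610 and 10612 in fertile libraries. Fertile library 2 thus lay inside the infertile range of the sum. The called contig, CAP3_round1_contig_5576, is a homolog of the core histone H2B and held 98.1, 7.56 and 2.59 in the infertile libraries and 879, 813 and 1749 in the fertile libraries, a ratio of 31.8 (log2 difference 6.22 ± 1.24, limma adjusted p = 0.722, negative binomial exact test adjusted p = 0.00418). This contig was also called by limma in the absence of infertile library 1 (log2 difference 7.60, limma adjusted p = 0.0876, negative binomial exact test adjusted p = 0.00129). CAP3_round1_contig_1301, a second H2B homolog, held 8.32, 0 and 2.59 in the infertile libraries and 175, 48.97 and 46.8 in the fertile libraries (log2 difference 4.54 ± 0.98, limma adjusted p = 0.722, negative binomial exact test adjusted p = 0.834). Linker histone H1.0 homologs were similar, such as Bot_rep_c52805 at 109.8, 1.89 and 0 in the infertile libraries and 385, 392 and 1063 in the fertile libraries (log2 difference 6.31 ± 1.73, limma adjusted p = 0.928, negative binomial exact test adjusted p = 0.335). Infertile library 1 accounted for nearly all of its infertile reads. Bot_rep_c48328, also an H1.0 homolog, held 148, 11.3 and 20.7 in the infertile libraries and 3143, 141 and 442 in the fertile libraries and overlapped (log2 difference 4.09 ± 1.41, limma adjusted p = 1.00, negative binomial exact test adjusted p = 1.00). Histone genes form families of near-identical copies, and reads could be split among them.

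Of 9 contigs with meiosis homologs, all 9 were tested, 4 had fertile libraries above and none was called, at a median log2 difference of 2.07. One was called by the negative binomial exact test when infertile library 1 was left out. SPO11 makes the DNA breaks that start recombination, and its homolog Bot_c23297 held 54.9, 17.01 and 10.3 in the infertile libraries and 273, 62.7 and 120.1 in the fertile libraries (log2 difference 2.51 ± 0.83, limma adjusted p = 1.00, negative binomial exact test adjusted p = 1.00). Cyclin-A1 is needed for male meiosis in mice. The homolog CAP3_round1_contig_4222 held 531, 3.78 and 10.3 in the infertile libraries and 1654, 594 and 761 in the fertile libraries, with nearly all of the infertile reads in infertile library 1 (log2 difference 4.89 ± 1.75, limma adjusted p = 1.00, negative binomial exact test adjusted p = 1.00). CAP3_round1_contig_456, a homolog of the chromosome axis protein HORMAD2, held 178, 75.6 and 54.3 in the infertile libraries and 1091, 168 and 368 in the fertile libraries and overlapped. The cyclin-B3 homolog CAP3_round1_contig_7272 held 605, 359 and 514 in the infertile libraries and 1768, 762 and 1191 in the fertile libraries, a ratio of 2.52 with no overlap (log2 difference 1.28 ± 0.52, limma adjusted p = 1.00, negative binomial exact test adjusted p = 1.00).

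The named genes that mark germ cells had reads in all 6 libraries. The homolog of DDX4 (vasa), an RNA helicase of germ cells in many animals, was CAP3_round1_contig_8235, at 634, 168 and 321 in the infertile libraries and 465, 433 and 1403 in the fertile libraries. Its groups overlapped (log2 difference 1.01 ± 0.74, limma adjusted p = 1.00, negative binomial exact test adjusted p = 1.00). Bot_rep_c49013, a homolog of TDRD7, a protein of germ granules, held 81.5, 58.6 and 25.9 in the infertile libraries and 177, 149 and 366 in the fertile libraries (log2 difference 2.07 ± 0.64, limma adjusted p = 1.00, negative binomial exact test adjusted p = 1.00). The boule homolog CAP3_round1_contig_4110, an RNA-binding protein needed for sperm formation in flies, held 99.8, 47.3 and 41.4 in the infertile libraries and 370.2, 123 and 289 in the fertile libraries (log2 difference 2.01 ± 0.63, limma adjusted p = 1.00, negative binomial exact test adjusted p = 1.00). Bot_c494, a nanos homolog, held 84.8, 79.4 and 43.95 in the infertile libraries and 202, 102 and 128 in the fertile libraries. These last 3 were separated by group and far from the threshold. Of 11 contigs 10 were tested, 3 had fertile libraries above, none was called and the median log2 difference was 0.90, beside 0.69 for contigs with a human homolog.

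Steroid and retinol dehydrogenases, which convert sex hormones and vitamin A compounds, had a median log2 difference of 0.42 over 9 tested of 10 contigs, and 1 was separated. That contig, the retinol dehydrogenase 13 homolog Bot_rep_c36423, held 58.2, 52.9 and 90.5 in the infertile libraries and 725, 212 and 279 in the fertile libraries (log2 difference 2.40 ± 0.61, limma adjusted p = 0.867, negative binomial exact test adjusted p = 1.00). The contig followed as hsd17b8, Bot_c2901, held 44.9, 17.01 and 10.3 in the infertile libraries and 55.03, 43.1 and 120.1 in the fertile libraries, with fertile library 2 just below infertile library 1 (log2 difference 1.67 ± 0.71, limma adjusted p = 1.00, negative binomial exact test adjusted p = 1.00). Bot_c22845, a retinol dehydrogenase 14 homolog, held 73.2, 7.56 and 23.3 in the infertile libraries and 150.1, 43.1 and 120.1 in the fertile libraries and overlapped. CAP3_round1_contig_2142, a 17-beta-hydroxysteroid dehydrogenase 14 homolog, was uneven in both groups, at 6.65, 1038 and 540.4 in the infertile libraries and 624, 17.6 and 12.2 in the fertile libraries.

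Tubulins split. Of 28 contigs 26 were tested, 9 had every fertile library above, 0 below and none was called, at a median log2 difference of 0.72. Without fertile library 2 the negative binomial exact test called 2. The separated ones were led by beta-2C homologs. CAP3_round1_contig_6824 held 1969, 316 and 334 in the infertile libraries and 13257, 3549 and 7279 in the fertile libraries, a ratio of 9.20 (log2 difference 3.56 ± 0.91, limma adjusted p = 0.867, negative binomial exact test adjusted p = 0.590). CAP3_round1_contig_9460 held 2201, 261 and 390.4 in the infertile libraries and 7552, 3738 and 8206 in the fertile libraries, CAP3_round1_contig_9496 held 715, 85.1 and 178 in the infertile libraries and 2163, 1312 and 2709 in the fertile libraries and CAP3_round1_contig_6873 held 1773, 249.5 and 375 in the infertile libraries and 14396, 2776 and 6188 in the fertile libraries. Infertile library 1 was the highest infertile library in all 4. Tubulins are near-identical to each other, so the split of reads among them is uncertain.

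**Figure D3:**
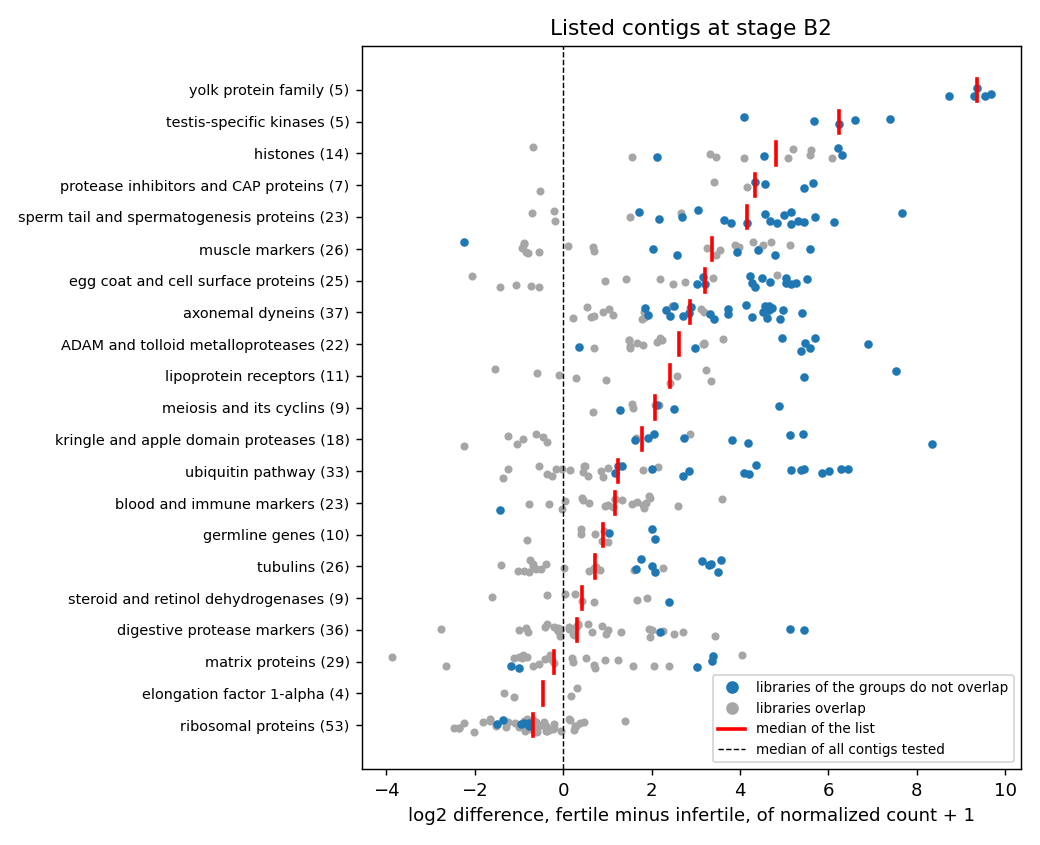
Each point is a tested contig, placed by its log2 difference (fertile minus infertile, of the normalized count plus 1) in the row of its list, with the number tested in brackets, blue where the libraries of the groups do not overlap and grey where they do, and a red bar for the median of the list. Yolk contigs sit between 8.73 and 9.67 and the list medians run down to -0.68 for ribosomal proteins, beside a dashed line at -0.01 for all contigs tested.

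Among the 122 contigs called by the negative binomial exact test, 57 had a human homolog, 38 were in a list, 24 had a human homolog and were in no list, and 35 had no homolog in any of the 5 species searched. The last group is therefore described by its values alone. In 117 of the 120 called higher, every fertile library was above every infertile one, beside 4.89% of all contigs tested. The calls came from these same libraries, so this count and the ratios that follow describe the calls and are no further support. The ratio of the means was at least 12.8 and had a median of 27.0 over the 104 contigs for which a ratio could be given, and the other 16 are lower bounds. Contigs of the 24 are named here after their values were seen. Bot_rep_c51846 and Bot_rep_c53791 are both homologs of a regulatory subunit of protein phosphatase 2A, an enzyme that removes phosphate from proteins. The first held 173, 20.8 and 10.3 in the infertile libraries and 5259, 1166 and 3759.8 in the fertile libraries, a ratio of 49.9 (negative binomial exact test adjusted p = 0.0136). The second held 33.3, 11.3 and 15.5 in the infertile libraries and 203, 217 and 489 in the fertile libraries (negative binomial exact test adjusted p = 0.0606). Bot_c2194, a homolog of the cyclic nucleotide phosphodiesterase 10A, held 195, 17.01 and 2.59 in the infertile libraries and 2468, 885 and 1647 in the fertile libraries (negative binomial exact test adjusted p = 0.0105). Bot_rep_c35370 is most like mitochondrial creatine kinase, which buffers ATP in cells of high demand, sperm among them. It held 289, 39.7 and 15.5 in the infertile libraries and 4245, 1242 and 2949.6 in the fertile libraries (negative binomial exact test adjusted p = 0.0147). Bot_rep_c45934, a homolog of an ion channel gated by cyclic nucleotides and by hyperpolarization, held 44.9, 0 and 5.17 in the infertile libraries and 337, 141 and 438 in the fertile libraries (negative binomial exact test adjusted p = 0.0422). In the phosphodiesterase, the creatine kinase and the channel alike, fertile library 2 was the lowest fertile library.

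Bot_rep_c47170, a homolog of stomatin (erythrocyte band 7 protein), which binds to membranes and ion channels, held 3.33, 0 and 0 in the infertile libraries and 122, 29.4 and 106 in the fertile libraries, at least 13.95-fold higher in fertile libraries (log2 difference 5.50 ± 0.86, limma adjusted p = 0.696, negative binomial exact test adjusted p = 0.0107). A second stomatin homolog, Bot_rep_c35821, held 43.2, 18.9 and 2.59 in the infertile libraries and 849, 223 and 839 in the fertile libraries (negative binomial exact test adjusted p = 0.0188). Bot_c2976 has ADP-ribosylation factor 6 as its closest human protein and a polyubiquitin-like protein as its closest Ciona protein, so that its function is not settled by its homologs. It had no read in any infertile library and 187, 50.9 and 140.5 normalized counts in the fertile libraries, at least 20.5-fold higher (log2 difference 6.80 ± 0.60, limma adjusted p = 0.111, negative binomial exact test adjusted p = 2.49e-04). Bot_rep_c39089, without a homolog, was alike, with 0 in every infertile library and 63.4, 23.5 and 38.7 in the fertile libraries, at least 6.82-fold higher (log2 difference 5.31 ± 0.51, limma adjusted p = 0.130, negative binomial exact test adjusted p = 0.0163). These were the 2 contigs with no infertile read and at least 10 read pairs in every fertile library, and 0 contigs showed the opposite. With at least 1 read pair in every library the numbers were 87 and 33. With at least 10 in any library they were 139 and 219. The 3 called contigs whose groups overlapped, Bot_c3493, Bot_c19010 and Bot_c32771, were each high in some fertile libraries only. Bot_c3493 held 3.34, 2742 and 2200.5 normalized counts in the fertile libraries, Bot_c19010 held 812, 0 and 674 and Bot_c32771 held 399, 0 and 254.

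Few contigs were called lower in the fertile libraries. The 2 that the negative binomial exact test called, named after their values were seen, had no read in any fertile library and none in infertile library 1. Bot_rep_c50682, a homolog of a carbohydrate sulfotransferase, held 0, 527 and 829.9 normalized counts in the infertile libraries, at least 79.9-fold above the fertile floor (negative binomial exact test adjusted p = 0.0315). CAP3_round1_contig_3590, without a homolog, held 0, 380.0 and 486, at least 50.98-fold (negative binomial exact test adjusted p = 0.0319). The groups of both overlap at 0, and limma with all libraries called neither (adjusted p = 1.00 for each). The negative binomial exact test called both without infertile library 1, and neither without any 1 of the other libraries. Limma called both without infertile library 1, and 7 more contigs lower, at an adjusted p of 0.0876 each.

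Among contigs with a named human homolog, those with the smallest limma p in this direction had log2 differences from -4.97 to -1.59 and none was called with all libraries. Without infertile library 1 the negative binomial exact test called the splicing factor 45 homolog Bot_c9797 lower (adjusted p = 0.00365) and the histidine ammonia-lyase homolog CAP3_round1_contig_3459 (adjusted p = 0.0579). CAP3_round1_contig_3459, a homolog of histidine ammonia-lyase, which breaks down histidine, held 18.3, 98.3 and 269 in the infertile libraries and 0, 5.88 and 12.2 in the fertile libraries (log2 difference -4.16 ± 1.32, limma adjusted p = 1.00, negative binomial exact test adjusted p = 1.00). Bot_c13895, an angiopoietin-related protein 2 homolog, held 273, 349.7 and 964 in the infertile libraries and 192, 27.4 and 42.7 in the fertile libraries (log2 difference -2.87 ± 0.89, limma adjusted p = 1.00, negative binomial exact test adjusted p = 1.00). Bot_rep_c56647 is most like RRP44, the catalytic part of the exosome that degrades RNA, and held 166, 136 and 243 in the infertile libraries and 41.7, 58.8 and 71.2 in the fertile libraries (log2 difference -1.64 ± 0.48, limma adjusted p = 0.994, negative binomial exact test adjusted p = 1.00). Its 3 infertile values were close to each other. Bot_c9797, a homolog of splicing factor 45, held 4.99, 100.2 and 256 in the infertile libraries and 0, 0 and 4.07 in the fertile libraries, at least 21.3-fold lower in fertile libraries (log2 difference -4.97 ± 1.50, limma adjusted p = 1.00, negative binomial exact test adjusted p = 0.982). CAP3_round1_contig_1934, a homolog of DNA polymerase theta, held 39.9, 49.1 and 132 in the infertile libraries and 21.7, 13.7 and 6.11 in the fertile libraries (log2 difference -2.28 ± 0.70, limma adjusted p = 1.00, negative binomial exact test adjusted p = 1.00). Bot_c11416, a zinc transporter 1 homolog, held 43.2, 11.3 and 31.02 in the infertile libraries and 6.67, 7.84 and 2.04 in the fertile libraries (log2 difference -2.14 ± 0.71, limma adjusted p = 1.00, negative binomial exact test adjusted p = 1.00). The others were homologs of the coiled-coil protein CCDC124 (Bot_c11599), titin (Bot_rep_c46847), elongation factor 2 (454_debris_rep_c1021) and a provirus Pol protein (Bot_c7967). All 10 had groups that did not overlap.

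Other tissues of the colony were followed through lists of marker homologs. Muscle markers (troponins, tropomyosins, myosins, titin and alpha actins) had 26 of 27 contigs tested, with a median log2 difference of 3.36, 6 with fertile libraries above, 1 below and 1 called, or 3.70% of 27 by the negative binomial exact test. That contig was not called without infertile library 2, infertile library 3 or fertile library 3, when 0 were called, nor without fertile library 1, when 11 others were. Their summed level was 37331, 69759.5 and 64742 in infertile libraries and 105718, 49301 and 58660.4 in fertile libraries, with overlap between the groups. An abundant member, the alpha actin homolog CAP3_round1_contig_10010, held 13729, 15227 and 20520.5 in the infertile libraries and 17600.5, 6840.4 and 6864 in the fertile libraries. The members with large differences were scarce ones, such as the called troponin C homolog Bot_rep_c51870, whose closest Ciona protein is a calmodulin-like protein, at 39.9, 0 and 2.59 in the infertile libraries and 440.2, 123 and 295 in the fertile libraries (log2 difference 5.59 ± 1.38, limma adjusted p = 0.846, negative binomial exact test adjusted p = 0.0463). Bot_rep_c54184, a second troponin C homolog, held 19.96, 11.3 and 5.17 in the infertile libraries and 634, 47.01 and 187 in the fertile libraries (log2 difference 3.94 ± 1.03, limma adjusted p = 0.867, negative binomial exact test adjusted p = 1.00).

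Digestive protease markers, homologs of trypsins, chymotrypsins and carboxypeptidases of the gut, had 36 of 37 contigs tested and a median log2 difference of 0.30. Their summed level was 9691, 128557 and 2541 in infertile libraries and 175929, 8852 and 3243 in fertile libraries, so that infertile library 2 and fertile library 1 were both more than an order of magnitude above the rest. One contig, or 2.70% of 37, was called by the negative binomial exact test, with 2 called without infertile library 1 or fertile library 2 and 0 without infertile library 2, infertile library 3 or fertile library 3. The called member, the chymotrypsinogen B homolog Bot_c16350, did not follow this sum and held 93.1, 7.56 and 5.17 in the infertile libraries and 694, 415 and 733 in the fertile libraries (log2 difference 5.13 ± 1.09, limma adjusted p = 0.722, negative binomial exact test adjusted p = 0.0398). Bot_rep_c36990, also a chymotrypsinogen B homolog, held 39.9, 0 and 0 in the infertile libraries and 157, 84.2 and 256 in the fertile libraries (log2 difference 5.46 ± 1.52, limma adjusted p = 0.928, negative binomial exact test adjusted p = 0.207). Without infertile library 1 limma called both. Blood and immune markers had 23 of 24 contigs tested, a median log2 difference of 1.17, 0 with fertile libraries above and 1 below, and summed to 6768, 35883 and 2389 in infertile libraries and 36572, 9025 and 10372 in fertile libraries. One of them, the ficolin-1 homolog Bot_c8144, was at 0 in all infertile libraries and held 113, 0 and 14.2 in the fertile ones. The separated one, CAP3_round1_contig_7242, a ficolin-1 homolog, held 63.2, 15.1 and 12.9 in the infertile libraries and 5.003, 9.79 and 10.2 in the fertile libraries (log2 difference -1.44 ± 0.72, limma adjusted p = 1.00, negative binomial exact test adjusted p = 1.00). No contig of the muscle and digestive lists was at 0 in a whole group. The part of these tissues in the differences above was not tested.

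Both lists of housekeeping genes had medians below the -0.01 of all contigs tested, and no member was called. Ribosomal protein contigs, 53 tested of 58, had a median log2 difference of -0.68, with 0 fertile above, 6 fertile below and 47 overlapping. Their summed level was 116237, 237575 and 273592 in infertile libraries and 155930.0, 124700.0 and 151713 in fertile libraries, with infertile library 1 below every fertile library and the other infertile libraries above. The 40S protein S13 homolog 454_debris_rep_c1351 held 358, 964 and 406 in the infertile libraries and 268, 167 and 136 in the fertile libraries (log2 difference -1.50 ± 0.58, limma adjusted p = 1.00, negative binomial exact test adjusted p = 1.00). Bot_c27997, a homolog of the 60S acidic protein P0, held 436, 1138 and 695 in the infertile libraries and 220.1, 278 and 332 in the fertile libraries (log2 difference -1.36 ± 0.53, limma adjusted p = 1.00, negative binomial exact test adjusted p = 1.00). Elongation factor 1-alpha, which delivers transfer RNA to the ribosome and is used as a reference gene, had 4 contigs with a median of -0.47, 2 of them with a positive log2 difference and all overlapping, at a summed level of 12587, 18489.5 and 16715 in infertile libraries and 11724, 10006 and 10618 in fertile libraries. Bot_rep_c56578 held 5971, 15898 and 7299 in the infertile libraries and 7374, 4589.6 and 1244 in the fertile libraries, and 454_debris_rep_c2088 held 419, 219 and 486 in the infertile libraries and 81.7, 221 and 238 in the fertile libraries.

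**Figure D4:**
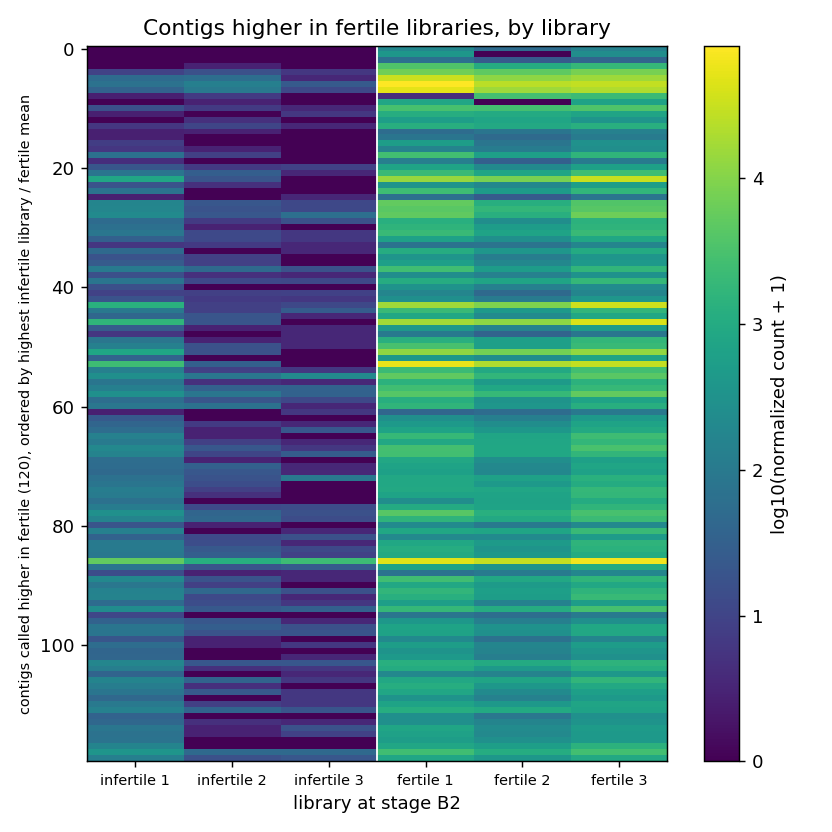
Colour gives the log10 of the normalized count plus 1 of the 120 contigs called higher, 1 row per contig in the order of the highest infertile library over the fertile mean, across the 6 libraries at stage B2. Infertile library 1 is brighter than infertile libraries 2 and 3 over most rows, with medians of 66.5, 7.56 and 2.59. Fertile library 2 is the darkest fertile library in 110 of the rows, and it was the lowest for 11758 of the 37751 contigs tested.

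The same 120 contigs were followed through the other stages of the cycle, where the labels give the same genotypes and pools. Each stage was normalized on its own and library numbers differ between stages, so values are set side by side without a test. The contigs had all fertile libraries above in 117 of 120 at A1, 118 at B1 and 117 at B2. The number was 72 at A2, 53 at D and 12 at both C1 and C2. At C2, 2 contigs had all fertile libraries below. The median ratio of fertile to infertile means there was 0.160, and 15 contigs had a ratio above 1. The 6 contigs at the infertile floor were given no ratio. At B2 the share over all contigs tested was 4.89%, and at the other stages this share was not computed. The 120 were chosen by their values at B2, so the count at B2 follows from that choice. Their median fertile mean was 403, 359, 748, 812, 221, 15.5 and 16.8 normalized counts in the order A1, A2, B1, B2, C1, C2, D. Over the same stages the median infertile mean was 3.89, 2.77, 4.18, 28.7, 62.7, 71.3 and 5.07. In these contigs, chosen at B2, fertile levels were highest at B1 and B2 and low from C2. Their infertile levels were highest from B2 to C2. The infertile reads of most of these contigs came largely from 1 library there, taken as the highest for each contig on its own. It held a median of 82.1% of the infertile sum at B2, 95.7% at C1 and 95.9% at C2. At the other stages it held 59.1% to 63.3%. Whether it was the same library for all contigs at C1 and C2 was not examined.

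Single contigs split into those that stayed high and those that did not. The vitellogenin contig CAP3_round1_contig_5534 had fertile means of 1794, 4478, 45604, 44523, 44132, 33669.7 and 16923 normalized counts in the same order of stages, with infertile means between 29.6 and 308. At A2 its fertile libraries were uneven, at 4988, 8366 and 78.5. For ldlr, Bot_rep_c45532, the ratio of the means was 7.01, 30.1, 91.5, 199, 92.9, 105 and 36.6. The kallikrein homolog CAP3_round1_contig_2527 stayed at 3 read pairs or fewer in the infertile libraries at all 7 stages, and its fertile mean went from 703 at A1 to 21.9 at D. In these 3 contigs no stage of the 7 had an infertile library as high as a fertile one.

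Other contigs took another course. For tsk-1, Bot_rep_c45338, the fertile libraries held 4476, 1749 and 4342 at B2, 741, 535 and 1543 at C1 and 82.7, 26.7 and 25.6 at C2, while the infertile libraries held 179.6, 17.01 and 10.3, 719, 11.1 and 8.61 and 1235, 18.5 and 8.38. At C1 and C2 a single infertile library was high and the other 2 stayed under 20 normalized counts. The ADAM12 homolog CAP3_round1_contig_6892 went from 5211, 1232 and 6685 in the fertile libraries at B2 to 162, 148 and 8.55 at C2, with infertile values of 225, 20.8 and 62.1 and 977, 29.6 and 67.1. The H2B homolog CAP3_round1_contig_5576 likewise had an infertile library at 595 at C2 beside others at 7.40 and 2.79. Otoancorin, CAP3_round1_contig_9042, had fertile means from 1122 at C2 to 6371 at B2, with overlap between the groups at C1 and C2.

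**Figure D5:**
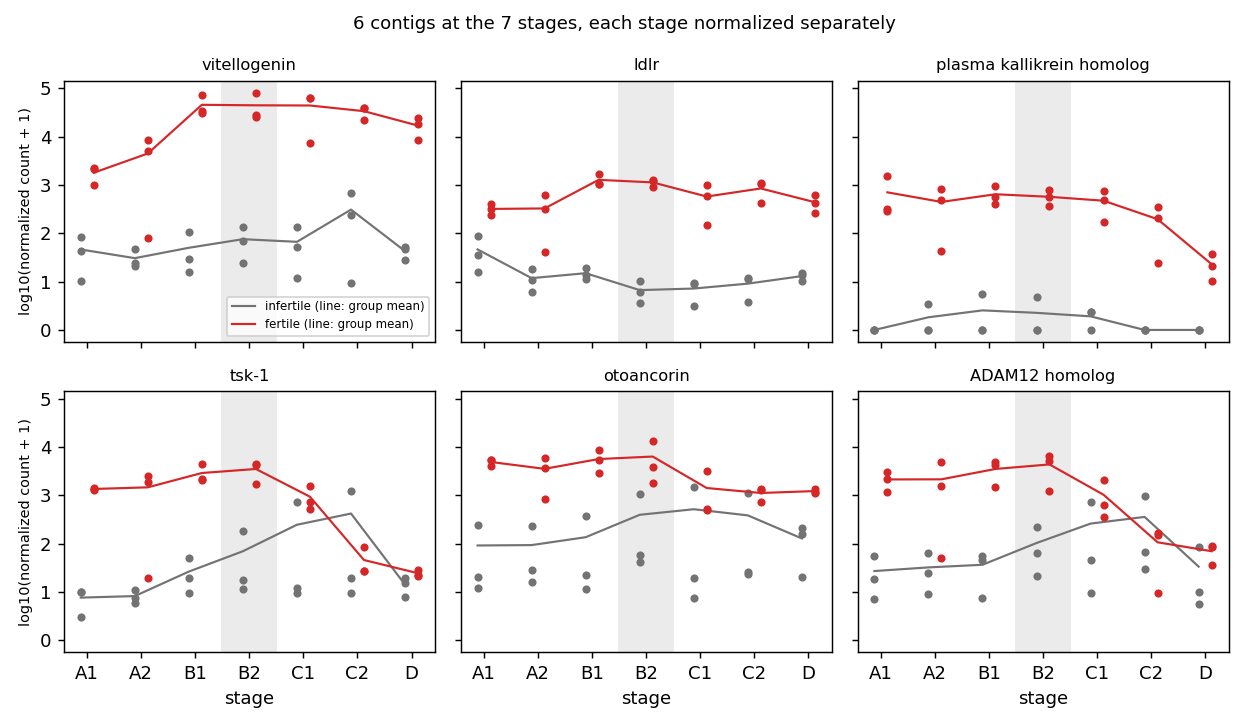
The log10 of the normalized count plus 1 is plotted against the stage for 6 contigs, with a point per library, a line through the group means, fertile in red and infertile in grey, and a grey band at B2; each stage was normalized separately. Vitellogenin, ldlr and the kallikrein homolog keep the fertile libraries above at all 7 stages, while tsk-1, otoancorin and the ADAM12 homolog overlap at C1 and C2 with a single high infertile library, the ADAM12 homolog also at A2 and D.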

How the data were processed

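Poly(A) RNA of whole colonies was sequenced as paired ends. The submitters' processing notes name CASAVA 1.8.2, FastQC, Bowtie 0.12.7, SAMtools 0.1.18, RSEM 1.2.3 and DESeq 1.10.1. Per the study's methods, reads were trimmed, mapped to an assembly of expressed sequence tags and counted per contig. The deposited values are a signal, the authors' mean over 3 libraries of counts divided by DESeq size factors, and the fold changes and p-values that the authors deposited beside them were not used. Which mean is fertile was read from the deposited table's name and the headings of the study's supplementary sheets.

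Read pairs per library were recovered by finding the 3 whole numbers and size factors that give each mean, up to a mean of 60000. Of 3000 decoy values per group 0 were solved, and of 397 simulated contigs 396 had a single solution, which was right in 396. The size factors lay between 0.999 and 1.00 times the median-of-ratios factors recomputed after recovery. Contigs whose mean reached 10 normalized counts were tested with limma 3.58.1 (R 4.3.3) on log2(normalized count + 1), and all contigs with reads by a negative binomial exact test on the read pairs (Python 3.11.15, numpy 2.4.6, scipy 1.17.1, numba 0.67.0), with the larger of each contig's own and the fitted dispersion and with Benjamini-Hochberg adjustment over all contigs tested. Tested on simulated data with a dispersion of 0.25, limma recovered 71 of 100 8-fold changes and 99 of 100 32-fold changes among 36995 contigs and called 9 unchanged ones, while the negative binomial exact test recovered 45 and 91 of 100 among 37751 contigs and called 8. The dispersion fitted to the data was 0.487 plus 1.46 divided by the mean of the scaled read pairs, which is above 0.25 at every mean. The simulated recovery rates therefore do not carry over to these data. No library of the B2 comparison was left out.

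Homologs came from annotation sheets of which only part was held, covering 4967 contigs, 2134 of them with a human homolog. Named contigs are those that limma called, the 4 members of each list with the smallest limma p (2 for marker lists), the 10 genes the study followed by PCR, the 10 higher and 10 lower contigs with a human homolog and the smallest limma p, and unsolved contigs with a ratio above 10 or below 0.1. Members, lists and rules were chosen with earlier results of these data known. The alternatives were other pseudocounts, minimum means, scalings, variance models and error rates, and leaving out each library in turn, for which the counts per list were added after seeing the data. Contig sequences were not used here.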

Additional observations from a re-analysis of the deposited data

Results flagged for a closer look

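A contig was put here where every fertile library lay above every infertile one at stage B2 and below every infertile one at another stage. The difference between stages was not tested, and each stage was normalized separately. Groups of 3 libraries are too small for a test of single outlying libraries.

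Bot_c25362, the DMBT1-like contig, had a ratio of fertile to infertile means of 19.5 at B2 and 0.05048 at C2. At C2 the infertile libraries held 164, 7.40 and 8.38 normalized counts and the fertile libraries 5.17, 1.78 and 2.14, so that 1 infertile library set most of the infertile mean. Bot_rep_c36423, the retinol dehydrogenase 13 homolog, had a ratio of 0.3892 at D, with 123, 386 and 192 in the infertile and 34.6, 119 and 119 in the fertile libraries, against 6.03 at B2. CAP3_round1_contig_7272, the cyclin-B3 homolog, had a ratio of 0.6926 at C2, with 595, 537 and 766 in the infertile and 469, 497 and 348 in the fertile libraries, against 2.52 at B2.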

How the results depend on the processing

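The number of contigs called depended on the test and on single libraries, and the sign of no named contig's difference was reversed. Of the values for named contigs under the alternatives, 873 kept their side of the limma threshold, 16 passed it newly and 21 no longer passed it. The limma count of 4 higher was 9 with a pseudocount of 10, 9 with a minimum mean of 50, 11 with library totals as the scaling, 8 with a mean-variance trend, 0 with voom and 0 at a 5% false discovery rate, against 120 higher and 2 lower by the negative binomial exact test. Leaving out 1 library at a time gave limma counts of 0 to 36 higher, with 36 without infertile library 1, 7 without infertile library 2 and 0 without any 1 of the others, and 0 to 9 lower, with 9 without infertile library 1. The negative binomial exact test gave 570 higher and 307 lower with the fitted dispersion alone. Leaving out 1 library gave 10 to 276 higher, of which the lowest was without infertile library 3 and the highest without fertile library 2, and 0 to 50 lower, with 50 without infertile library 1 and 17 without fertile library 2. The test with 13 higher contigs, without infertile library 2, shared 9 with the 120, the test with 10 also shared 9, and the test with 44, without fertile library 3, shared 41. Contigs with fertile libraries above numbered 1138 at a minimum mean of 50 and 2752 to 4350 with 1 library left out, and those below 2340 to 4202, since fewer libraries separate more easily.

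A pseudocount of 10 moved the median log2 difference of the dyneins to 1.65, of the sperm tail list to 2.83 and of the ADAM and tolloid list to 1.80. With 1 library left out, the medians ran from 8.64 to 9.87 for the yolk family, 1.40 to 3.69 for lipoprotein receptors, 5.31 to 7.82 for testis-specific kinases, 1.48 to 2.22 for kringle and apple domain proteases, 1.32 to 3.29 for the ADAM and tolloid list, 2.72 to 4.24 for egg coat and surface proteins and 0.30 to 2.13 for blood and immune markers. The digestive protease median ran from -1.41 to 1.84 and changed sign. Medians of the matrix proteins, from -0.36 to 0.04, and of the steroid and retinol dehydrogenases, from -0.03 to 0.97, also changed sign. The median over all contigs moved by less than 0.1 under each scaling. No paired analysis was possible because the labels give the fertile and infertile libraries no shared number and name different genotypes or pools for each of the 6. The 96 most abundant contigs have no library values and were not tested, and 9021 contigs were under the minimum mean for limma.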
